A study of Mus musculus with 12 samples.

Results

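The epithelial identity and splicing regulators described here are 10 genes chosen by symbol, of 47593 genes in the table: the grainyhead-like transcription factors Grhl1, Grhl2 and Grhl3, the zinc finger repressors Ovol1 and Ovol2, the transcription factors Elf3 and Klf5, the splicing factors Esrp1 and Esrp2, and the small GTPase Rab25. All 10 were found, each as 1 row, and all 10 had a mean of at least 1 TPM (a level scaled by transcript length and to a fixed total per library). Poly(A) RNA of 12 mammary tumors, taken from 9 MADM-mutant mice, was measured by sequencing. MADM (mosaic analysis with double markers) makes, by recombination between homologous chromosomes in a heterozygous mouse, rare GFP-labeled cells that have lost both Brca1 and p53. Cre was driven by the MMTV promoter, which is active in mammary epithelium, so the labeled mutant cells arise among heterozygous cells. The labels give all 12 samples the genotype MADM RG;GR on a mixed background and no treatment. Tumors 3 and 4 came from one mouse, tumors 10, 11 and 12 from another, and the other 7 mice gave 1 tumor each. Whole pieces of tumor were homogenized, so the values cover mutant cells together with stroma, vessels and immune cells, and fewer cells of a type and less RNA per cell cannot be told apart. There is 1 condition and no normal gland, so levels were compared between genes and between tumors, not with a control.

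Epithelial cells keep their shape and their contacts through a small set of regulators. Grainyhead-like proteins bind DNA and activate genes of cell junctions, and Grhl2 is known to act on Cdh1, which encodes E-cadherin, and on claudin genes. Ovol1 and Ovol2 repress genes of the mesenchymal state, Zeb1 among them, and Zeb1 in turn represses epithelial genes through E-boxes in their promoters. Esrp1 and Esrp2 bind RNA and set the epithelial splice forms of transcripts such as those of Fgfr2 and Cd44. Elf3 is an ETS factor of epithelia, Klf5 a Krüppel-like factor of proliferating epithelial cells, and Rab25 an epithelial relative of Rab11 that returns cargo from endosomes to the cell surface.

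Promoter sequence was read for 5 of the 10 genes from the RefSeq table (GRCm38.p6, 250 bases before to 50 after the start site), as 6 windows, since Grhl1 has 2 starts; no window was read for Grhl2, Ovol1, Klf5, Esrp1 and Esrp2. The windows were searched on both strands for the grainyhead palindrome AACCGGTT, for its looser form AACNNGTT, which includes the palindrome, and for the E-box CACCTG or its reverse complement, which Zeb and Snai proteins bind. E-boxes stood in 3 of the 6 windows, those of Elf3, Grhl3 and Rab25, against 20.2% of 32851 promoters of the same length. Those 3 windows are printed because they place the motifs beside the levels below, with the motifs in capitals and the rest in lower case. The Elf3 window is chr1:135258423-135258722, the Grhl3 window is chr4:135573583-135573882 and the Rab25 window is chr3:88548230-88548529, all on the minus strand.
Elf3: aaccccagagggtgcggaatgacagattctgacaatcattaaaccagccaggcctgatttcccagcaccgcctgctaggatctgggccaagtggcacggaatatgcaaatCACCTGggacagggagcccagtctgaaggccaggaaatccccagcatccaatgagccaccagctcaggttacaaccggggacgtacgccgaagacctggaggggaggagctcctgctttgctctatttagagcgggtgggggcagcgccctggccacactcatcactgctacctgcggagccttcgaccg
Grhl3: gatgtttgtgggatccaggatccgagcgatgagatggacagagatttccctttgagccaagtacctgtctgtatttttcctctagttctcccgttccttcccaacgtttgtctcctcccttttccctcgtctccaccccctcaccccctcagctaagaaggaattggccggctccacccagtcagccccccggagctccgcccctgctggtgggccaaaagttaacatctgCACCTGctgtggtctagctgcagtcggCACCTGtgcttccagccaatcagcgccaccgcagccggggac
Rab25: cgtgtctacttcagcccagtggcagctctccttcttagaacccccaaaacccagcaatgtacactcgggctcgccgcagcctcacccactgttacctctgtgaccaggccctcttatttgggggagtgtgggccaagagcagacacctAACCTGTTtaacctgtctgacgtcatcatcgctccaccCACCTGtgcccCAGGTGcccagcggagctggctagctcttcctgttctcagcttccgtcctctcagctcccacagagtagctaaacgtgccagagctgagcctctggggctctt
The Elf3 E-box began 140 bases before the start site. In Grhl3, 1 E-box began 19 bases before the start site and the other at base 9 of the transcript. Rab25 held E-boxes that began 64 and 53 bases before the start site, and further out, 102 bases before it, the one AACNNGTT match, AACCTGTT. AACNNGTT was found in 4.20% of all promoters and AACCGGTT in 0.146%, and none of the 6 windows held the palindrome. A match is a description of the letters and not a bound site.

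The identity of 2 tumors bears on every value below. The summed level of 6 epithelial markers (Epcam, Cdh1, Krt8, Krt18, Krt19 and Cldn3) was 1.11 TPM in tumor 2 and 158 TPM in tumor 8, against 2517 to 7762 TPM in the other 10. Tumor 2, labeled as a mammary tumor, lacked the defining epithelial markers, with Epcam and Krt19 listed at 0. The summed B lymphocyte markers (Cd79a, Cd79b, Ms4a1 and Ighm) were 4159 TPM in tumor 2 and 11.6 to 315 TPM elsewhere. Ighm, at 2873 TPM, was the largest part of the sum in tumor 2, and Cd79a and Cd79b were also highest there. Ms4a1 was not, at 2.18 TPM in tumor 2 and 11.7 TPM in tumor 9. In tumor 8, Krt8 was 128 TPM and Krt14 87.9 TPM, Epcam was 2.03 TPM, and the 8 mesenchymal markers summed to 5579 TPM, above the 230 to 3098 TPM of the other 11. Most of that sum was Vim (3049 TPM), Fn1 (1211 TPM) and Sparc (1210 TPM). Vim, Fn1, Zeb1, Zeb2 and Snai2 were highest in tumor 8, but Sparc was higher in tumor 4 (1634 TPM) and Twist1 in tumors 5, 11 and 12. Cdh2 was low in tumor 8, at 0.290 TPM against up to 8.24 TPM in tumor 9. Because these 2 tumors stand apart, levels are given over all 9 mice and over the 7 mice that carried the other 10 tumors, with tumors of one mouse averaged.

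**Figure D1:**
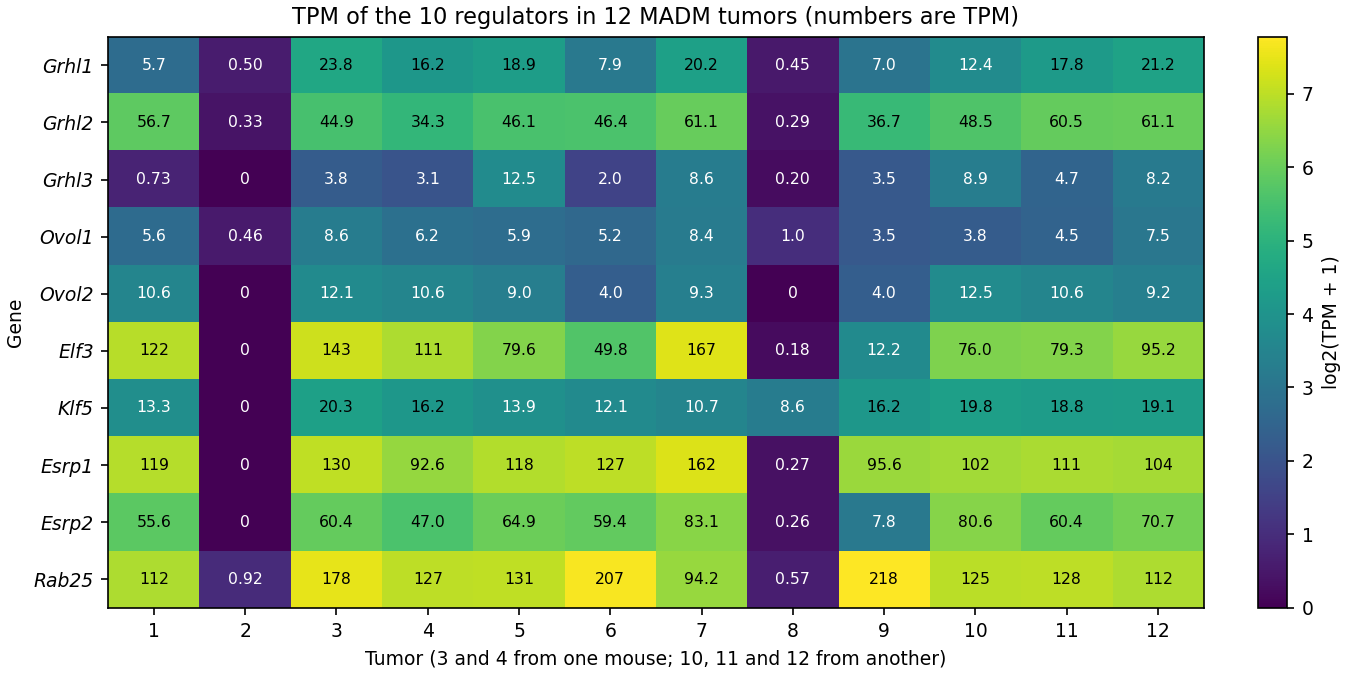
Level of each of the 10 regulators (rows) in each of the 12 tumors (columns). Numbers are TPM, and color is log2(TPM + 1). Tumors 2 and 8 are the dark columns, from 0 to 1.01 TPM in every row but Klf5 (8.56 TPM in tumor 8). Within the Esrp2 and Elf3 rows, tumor 9 is the darkest of the other 10.

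The 10 genes differed widely in level where they were expressed. Over the 7 mice, mean levels ran from 148 ± 47.7 TPM for Rab25 (SD, n = 7 mice) and 119.8 ± 21.3 TPM for Esrp1 down to 5.91 ± 1.58 TPM for Ovol1 and 5.44 ± 4.20 TPM for Grhl3. In order of the mean log2(TPM + 1), Rab25 was followed by Esrp1, Elf3, Grhl2, Esrp2, Klf5, Grhl1, Ovol2, Ovol1 and Grhl3. Of the 9 neighboring pairs in that order, 8 differed by less than the SD of the difference between mice. The exception was Esrp2 above Klf5, by 1.65 ± 1.23 on the log2 scale and in 6 of 7 mice, tumor 9 being the one in which Esrp2 was below.

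Among the grainyhead-like genes, Grhl2 was the most abundant and the steadiest. Grhl2 (ENSMUSG00000022286, chromosome 15, 37233036 to 37363569, plus strand, GRCm38) was at 56.7 TPM in tumor 1, 44.9 and 34.3 in tumors 3 and 4, 46.1 in tumor 5, 46.4 in tumor 6, 61.1 in tumor 7, 36.7 in tumor 9, and 48.5, 60.5 and 61.1 in tumors 10 to 12. These 10 values spanned 1.78-fold, with 0.327 TPM in tumor 2 and 0.294 TPM in tumor 8 far below them. The mean was 38.2 ± 23.0 TPM over 9 mice and 49.1 ± 9.31 TPM over 7. Grhl1 (ENSMUSG00000020656, chromosome 12, 24572283 to 24617391, plus strand) had a lowest, median and highest level of 5.68, 17.0 and 23.8 TPM in the same 10 tumors, with 0.50 TPM in tumor 2 and 0.449 TPM in tumor 8. Tumor 1 held the lowest Grhl1 value of the 10 although its Grhl2 value was among the higher ones. Grhl3 (ENSMUSG00000037188, chromosome 4, 135541888 to 135573630, minus strand), a family member of stratified epithelia, ranged most, 17.3-fold, from 0.726 TPM in tumor 1 through a median of 4.26 to 12.5 TPM in tumor 5. It was listed at 0 in tumor 2 and was 0.202 TPM in tumor 8, so the gap between tumor 8 and tumor 1 was small for this gene.

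Ovol1 (ENSMUSG00000024922, chromosome 19, 5549136 to 5560646, minus strand) and Ovol2 (ENSMUSG00000037279, chromosome 2, 144305175 to 144332146, minus strand) were expressed at low levels. Ovol1 had a lowest, median and highest level of 3.55, 5.75 and 8.55 TPM in the 10 tumors, and a mean of 5.91 ± 1.58 TPM over 7 mice and 4.76 ± 2.66 TPM over 9. In tumor 8, Ovol1 was 1.01 TPM, or 18.5% of the median of 12 tumors, and in tumor 2 it was 0.463 TPM. Ovol2 was listed at 0 in both tumors 2 and 8. In the 10 other tumors Ovol2 fell in 2 ranges: 4.03 TPM in tumor 9 and 4.05 TPM in tumor 6, and 9.05 to 12.5 TPM in the rest. Its mean was 8.45 ± 3.12 TPM over 7 mice and 6.57 ± 4.60 TPM over 9.

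Elf3 (ENSMUSG00000003051, chromosome 1, 135253575 to 135258568, minus strand) was one of the most variable of the abundant members. It was at 122 TPM in tumor 1, 143 and 111 in tumors 3 and 4, 79.6 in tumor 5, 49.8 in tumor 6, 167 in tumor 7, 12.2 in tumor 9, and 76.0, 79.3 and 95.2 in tumors 10 to 12. Tumor 9 was the low end, at 15.4% of the median of 12 tumors, and the 10 values spanned 13.7-fold. Elf3 was listed at 0 in tumor 2 and was 0.181 TPM in tumor 8. Klf5 (ENSMUSG00000005148, chromosome 14, 99298691 to 99315036, plus strand) varied little, with a coefficient of variation of 21.6% over 7 mice, beside 19.0% for Grhl2. Its lowest, median and highest levels in the 10 tumors were 10.7, 16.2 and 20.3 TPM. Klf5 was the one member still near the other tumors in tumor 8, at 8.56 TPM or 57.0% of the median, although that was below each of the 10. In tumor 2 it was listed at 0.

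Esrp1 (ENSMUSG00000040728, chromosome 4, 11331933 to 11386783, minus strand) had the smallest relative spread of the 10 members, with a coefficient of variation of 17.8% over 7 mice. It was at 119 TPM in tumor 1, 130.4 and 92.6 in tumors 3 and 4, 118 in tumor 5, 127 in tumor 6, 162 in tumor 7, 95.6 in tumor 9, and 102, 111 and 104 in tumors 10 to 12. In tumor 2 it was listed at 0 and in tumor 8 it was 0.269 TPM. Esrp2 (ENSMUSG00000084128, chromosome 8, 106130319 to 106136974, minus strand) was at 55.6 TPM in tumor 1, 60.4 and 47.0 in tumors 3 and 4, 64.9 in tumor 5, 59.4 in tumor 6, 83.1 in tumor 7, and 80.6, 60.4 and 70.7 in tumors 10 to 12. Tumor 9 stood apart from these 9 tumors, at 7.77 TPM, while its Esrp1 level lay within the range of the others. Esrp2 was listed at 0 in tumor 2 and was 0.261 TPM in tumor 8. Rab25 (ENSMUSG00000008601, chromosome 3, 88542029 to 88548300, minus strand) had a lowest, median and highest level of 94.2, 127 and 218 TPM in the 10 tumors, with 0.924 TPM in tumor 2 and 0.567 TPM in tumor 8. Its 2 highest tumors, 9 (218 TPM) and 6 (207 TPM), were the 2 in which Ovol2 was lowest among the 10.

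Some members share exonic bases with a gene on the other strand, and whether strand was used in quantification is not given in the sources used here. Grhl2 shares 169 of 8613 exonic bases (1.96%) with Gm16136, which reached 61.1 TPM in tumor 9, and Esrp2 shares 5.05% with Nfatc3 and 2.74% with 1810019D21Rik. The latter was 2.76 TPM in tumor 9 and 15.9 to 35.2 TPM in the 9 other tumors that expressed Esrp2, so it was low in the same tumor as Esrp2. Elf3 shares 7.31% with Gm26642, at most 4.29 TPM, and Esrp1 2.01% with Gm26663, at most 2.72 TPM. For Ovol2 the shared part is 17.0% with 1700108N11Rik, at most 0.064 TPM, and for Ovol1 it is 19.8% with Gm31166 and 2.18% with AC126029.1, for which no value was used here. The part of these overlaps in the levels was not tested.

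The paired genes were compared within each mouse, as the difference of log2(TPM + 1) with a two-sided exact sign-flip permutation test over 9 mice, whose smallest possible p is 0.0039. Esrp1 was above Esrp2 by 1.01 ± 1.02 (SD), in 8 of 9 mice with the remaining mouse (tumor 2) tied at 0 (exact permutation p = 0.0078, adjusted over 4 comparisons 0.016). In tumor 8 the difference was only 0.0099, since both genes were nearly absent. Over the 7 mice the difference was 1.29 ± 0.97, and tumor 9 alone, at 3.46, lay outside the 0.58 to 1.09 of the other 6. In TPM, Esrp1 was 1.26 to 2.16 times Esrp2 in 9 tumors and 12.3 times Esrp2 in tumor 9.

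Grhl2 exceeded Grhl3 by 2.57 ± 1.59 in 9 of 9 mice (exact permutation p = 0.0039, the smallest possible; adjusted 0.016) and exceeded Grhl1 by 1.43 ± 1.11 in 7 of 9 mice (exact permutation p = 0.016, adjusted 0.021). The 2 mice with Grhl1 above Grhl2 were those of tumors 2 and 8, where both genes were nearly absent. Grhl3 was nearly absent there too, and Grhl2 was above it by only 0.41 in tumor 2 and 0.11 in tumor 8. Over 7 mice Grhl2 exceeded Grhl3 by 3.23 ± 1.04 and Grhl1 by 1.89 ± 0.74 (exact permutation p = 0.016 for each, the smallest possible with 7 mice). Ovol1 and Ovol2 could not be ordered. Their difference, Ovol1 minus Ovol2, was -0.14 ± 0.65, with Ovol1 higher in 3 mice and Ovol2 in 6 (exact permutation p = 0.53, adjusted 0.53). Among the 3 were the mice of tumors 2 and 8, with Ovol2 listed at 0 and Ovol1 at 0.463 and 1.01 TPM. Over the 7 mice the difference was -0.41 ± 0.44, with Ovol2 higher in 6 (exact permutation p = 0.078).

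**Figure D2:**
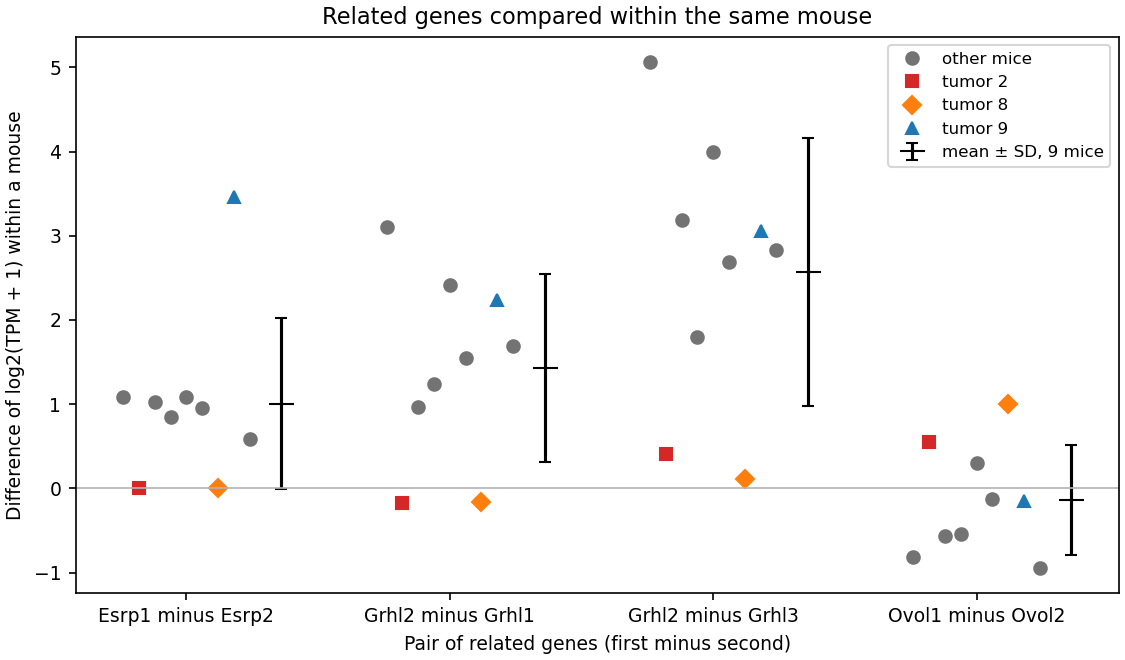
Difference of log2(TPM + 1) between related genes within each of 9 mice (points), with the mean and SD over 9 mice (black bars). Tumor 9 has the highest Esrp1 minus Esrp2 difference (3.46), and tumors 2 and 8 lie near 0 for the Esrp and Grhl pairs.

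Tumors 2 and 8 were the 2 lowest of the 12 for all 10 members. That position has to be read against the whole table, because tumor 2 was among the 2 lowest for 40.8% of the 16802 genes with a mean of at least 1 TPM, and tumor 8 for 22.6%. A stricter limit, chosen after the values were seen, was 10% of the median tumor. All 10 members were under it in tumor 2, against 13.9% of genes, and 8 of 10 in tumor 8, against 3.94%. The 2 above it in tumor 8 were Ovol1 (18.5%) and Klf5 (57.0%). With tumor 2 left out, tumor 8 was the lowest of 11 for 10 of 10 members, against 15.3% of genes, which follows from the ranks of the 12 and adds nothing to them. It was then under 10% of the median for 8 of 10, against 4.05%. The median member differed from the median tumor by -4.58 in tumor 2 and by -4.29 in tumor 8 on the log2(TPM + 1) scale, where the median of all genes was -0.12 and -0.019. The members were named together as epithelial genes, so these counts are a description and no independent test.

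Genes of junctions and the epithelial surface followed the same course. Of 16 such genes, chosen with earlier results known, tumor 8 was among the 2 lowest for 16, against 22.6% of all genes, and tumor 2 for 15, against 40.8%, the exception being Dsp, the desmoplakin gene, whose lowest values were 0.274 TPM in tumor 6 and 0.316 TPM in tumor 8 beside 0.833 TPM in tumor 2. Cdh1 was 0.116 TPM in tumor 2, 3.77 TPM in tumor 8, and 82.6 to 302 TPM elsewhere. In tumor 8, 14 of the 16 were under 10% of the median tumor, against 3.94% of all genes. Above it were Spint1, a protease inhibitor gene, at 38.7 TPM and the plakophilin gene Pkp3 at 10.7 TPM. The list's median difference to the median tumor was -5.98 in tumor 2 and -5.10 in tumor 8.

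The transcription factors of the mesenchymal state differed between the 2 tumors. In tumor 8, 6 of 7 were among the 2 highest of 12, against 20.9% of genes, and none was among the 2 lowest. Prrx1 was 172 TPM there and at most 25.5 TPM elsewhere, Twist2 64.6 TPM against at most 4.83, Snai1 83.6 TPM against at most 41.2, Zeb2 55.6 TPM against at most 32.2, Zeb1 29.3 TPM against at most 15.4 and Snai2 7.31 TPM against at most 4.71. Twist1, at 16.3 TPM, was below tumors 5, 11 and 12. Tumor 2 had 2 of the 7 among its 2 highest, against 27.3% of genes, namely Zeb1 at 15.4 TPM and Zeb2 at 32.2 TPM, while 4 of the 7, Snai1, Twist1, Twist2 and Prrx1, were among the 2 lowest, against 40.8% of genes. The summed fibroblast markers were 3009 TPM in tumor 8, beside 2706 TPM in tumor 4, and 83.0 TPM in tumor 2, and the summed macrophage markers were 3668 TPM in tumor 8 and at most 2577 TPM elsewhere. The part of fibroblasts, lymphocytes or macrophages in these levels was not tested.

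Other epithelial transcription factors were not all low in tumor 8. Of the 9 in the list, 8 had a mean of at least 1 TPM (Spdef did not), and tumor 2 was among the 2 lowest for 8 of 8, against 40.8% of all genes, while tumor 8 was for 3 of 8, against 22.6%. The 3 were Ehf (1.04 TPM), an ETS factor related to Elf3, Elf5 (0.141 TPM), a factor of alveolar cells, and Tfap2c (listed at 0). By contrast Tfap2a was 37.1 TPM in tumor 8, Gata3, the luminal factor, 21.2 TPM, and Klf4, a relative of Klf5, 22.1 TPM, each inside the span of tumors 1, 3 to 7 and 9 to 12. The median difference of the 8 genes to the median tumor was -4.59 in tumor 2 and -0.30 in tumor 8.

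Other splicing regulators lay on both sides of the other tumors in tumor 8, where Esrp1 and Esrp2 were nearly absent. Of 6 such genes, 1 (against 22.6% of all genes), Rbm47, an RNA-binding protein gene of epithelia, was among the 2 lowest in tumor 8 (4.54 TPM, against 18.7 to 46.9 TPM in the 10 tumors). In tumor 8, Rbfox2 (89.8 TPM), Qk (86.8 TPM) and Mbnl2 (109 TPM) were among the 2 highest of 12, above each of the 10 tumors other than 2 and 8 (at most 52.7, 75.2 and 96.1 TPM), where 20.9% of all genes had tumor 8 among the 2 highest. Mbnl1 and Ptbp1 lay inside the range of those 10. The polypyrimidine tract-binding protein gene Ptbp1 was 262 TPM in tumor 8 and 322 TPM in tumor 2. Of 6 genes whose splice forms Esrp proteins are known to set, Ctnnd1 (80.1 TPM) and Scrib (48.2 TPM) were among the 2 lowest in tumor 8 and Enah (48.4 TPM) among the 2 highest, counts near the 22.6% and 20.9% of all genes. Cd44 was 348 TPM in tumor 8 and 1.69 TPM in tumor 2, and Fgfr2 was 31.0 TPM in tumor 2 and at most 5.94 TPM elsewhere. These are totals per gene, and splice forms were not analysed here.

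Relatives of Rab25 and of the Grhl and Ovol factors were looked up in the same way. Of 7 genes of the Rab11 family and its effectors, tumor 8 was among the 2 lowest for 1, Rab11fip4 (0.608 TPM), near the 22.6% of all genes, and tumor 2 was for 6 of 7, against 40.8%. Rab11a, the ubiquitous relative of Rab25, was 136 TPM in tumor 8. Ovol3 was listed at 0 in all 12 tumors. Of the other 3 relatives, Tfcp2l1 was 0.157 TPM in tumor 8 and listed at 0 in tumor 2, while Tfcp2 and Ubp1 were 13.1 and 40.2 TPM in tumor 8.

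**Figure D3:**
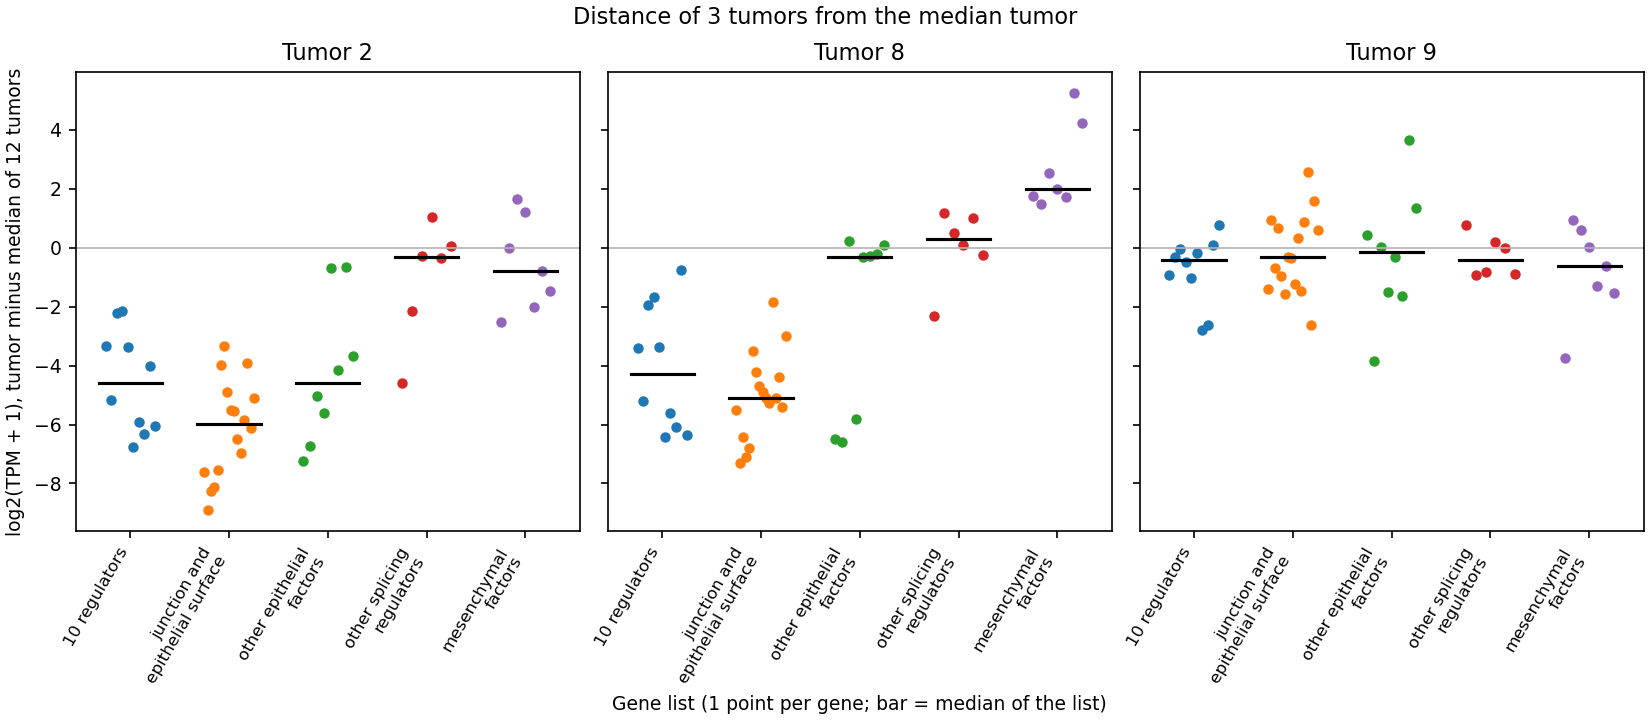
Difference between a tumor and the median of the 12 tumors in log2(TPM + 1), for tumors 2, 8 and 9 (panels), with 1 point per gene and a bar at the list's median. The regulators and the junction genes lie low in tumors 2 and 8 (medians -4.58 and -4.29 for the regulators), the mesenchymal factors lie high in tumor 8 (median 1.99), and in tumor 9 only 2 of the 10 regulators are more than 2 units low.

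Tumor 9 was at the low end of the 10 epithelial tumors for 7 of the 10 members, being the lowest or second lowest of the 10, but it was for 42.7% of all genes too. Esrp2 and Elf3 were at 13.0% and 15.4% of the median tumor, and these were the 2 of 10 members under 25% of it, a limit chosen after the values were seen, against 8.43% of genes. Ovol2 (43.7% of the median) and Ovol1 (65.4%) were also the lowest of the 10 tumors there, and Grhl1 (48.8%), Grhl2 (79.4%) and Esrp1 (89.1%) the second lowest. Grhl3 was at 96.7%, Klf5 at 108% and Rab25 at 173%. Elf5, another ETS factor, was 6.77 TPM in tumor 9 against 79.0 to 176 TPM in the other 9, but Gata3 (52.4 TPM) and Foxa1 (19.0 TPM) had their highest values of the 12 tumors there. Cd44 was 28.2 TPM in tumor 9 and at least 189 TPM in the same 9 tumors. The epithelial marker sum of tumor 9 was 2884 TPM, above only tumor 7 among the 10, its B lymphocyte markers summed to 315 TPM and its T lymphocyte markers to 81.7 TPM, the highest of the 12. Cdh1 (82.6 TPM), Cldn3 (212 TPM), Krt8 (677 TPM) and Krt18 (562 TPM) were each the lowest of the 10 epithelial tumors there, whereas Epcam (914 TPM) and Krt19 (436 TPM) were the second highest of the 12. Of the basal keratins, Krt14 (11.1 TPM) was at 4.49% of the median while Krt5 and Krt17 were at 109.8% and 103% of it. Myh11, a smooth muscle and myoepithelial myosin gene, was 250.4 TPM in tumor 9 and at most 3.44 TPM elsewhere, and it made up most of the sum of the 5 myoepithelial markers (275 TPM, the highest of the 12), while Acta2 (22.2 TPM) was the lowest of the 12. The part of immune, muscle or other cells in these levels was not tested.

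Tumors that shared a mouse were compared directly. Between tumors 3 and 4, each of the 10 members was lower in tumor 4, at 0.68 (Grhl1) to 0.88 (Ovol2) times the level of tumor 3, with a median ratio of 0.768. Among all genes tested, 55.0% were lower in tumor 4, with a median ratio of 0.967. The shift was not particular to the members, since 16 of 16 junction genes and 7 of 7 Rab11 family genes were also lower in tumor 4, and the epithelial marker sum was 6066 TPM in tumor 3 and 4651 TPM in tumor 4. None of the 7 mesenchymal factors was lower in tumor 4, with Zeb1 and Prrx1 at 3.29 and 2.89 times. The fibroblast markers summed to 1049 TPM in tumor 3 and 2706 TPM in tumor 4. In the same order, adipocyte markers summed to 129 and 351 TPM and macrophage markers to 1530 and 2474 TPM, while skeletal muscle markers went down, from 365 to 245 TPM. The part of stroma in this shift was not tested, and the comparison, chosen after the values were seen, has 1 tumor on each side. Among tumors 10, 11 and 12 the highest was 1.05 (Klf5) to 2.00 (Ovol1) times the lowest.

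Relations between genes were computed over the 7 mice, since pooling them with tumors 2 and 8 would join separate clusters. None of 8 relations passed after adjustment. Grhl2 with Rab25 gave Pearson r = -0.82 (exact permutation p = 0.028, adjusted over 8 relations 0.12) and Spearman rho = -0.89 (exact permutation p = 0.012, adjusted 0.098). Without the 2 mice farthest from the Grhl2 median, those of tumors 7 and 9, r was -0.57, and with both genes taken relative to Krt8, Krt18, Cdh1 and Epcam it turned to 0.52. Grhl2 and Cdh1 gave r = 0.76 (exact permutation p = 0.031, adjusted 0.12), rho = 0.54 (exact permutation p = 0.24, adjusted 0.47) and r = 0.81 without those 2 mice.

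The relations with Zeb1 were smaller and did not pass before adjustment. For Grhl2 r was -0.60 and rho -0.36 (exact permutation p = 0.16 and 0.44), and for Esrp1 r was -0.59 and rho -0.54 (exact permutation p = 0.16 and 0.24). Without the mice of tumors 7 and 9 they were -0.34 and -0.51, and relative to the same 4 epithelial genes they turned to 0.57 and 0.63. Ovol2 with Zeb1 gave r = -0.018 and rho = 0.39 (exact permutation p = 0.97 and 0.40), and r = 0.91 without the mice of tumors 6 and 9. For Esrp1 with Esrp2, r was 0.65 and rho 0.54 (exact permutation p = 0.16 and 0.24), and r turned to -0.31 without the mice of tumors 7 and 9. Grhl2 with Ovol2 gave r = 0.48 and rho = 0.29 (exact permutation p = 0.28 and 0.56), with r = 0.14 without the 2 mice. Elf3 with Klf5 gave r = -0.23 and rho = -0.18 (exact permutation p = 0.66 and 0.71), and r = 0.48 without the 2 mice. Adjusted over 8 relations, these p values were 0.26 to 0.97 for r and 0.47 to 0.71 for rho.

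**Figure D4:**
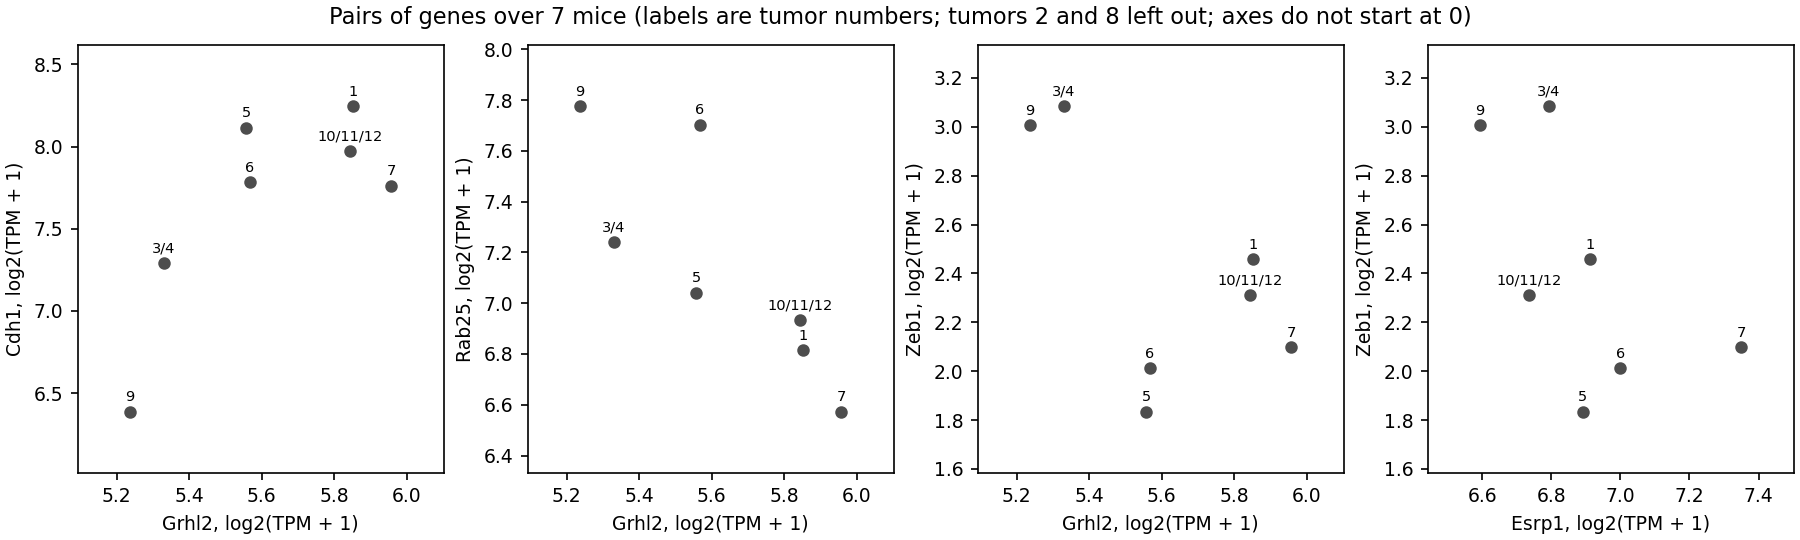
Log2(TPM + 1) of pairs of genes over 7 mice (points, labeled by tumor number, tumors of one mouse averaged), without tumors 2 and 8. From left to right r was 0.76 for Cdh1 with Grhl2, -0.82 for Rab25 with Grhl2, -0.60 for Zeb1 with Grhl2 and -0.59 for Zeb1 with Esrp1.

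The genes with the profile most like that of Grhl2 were found as the smallest root mean square difference of log2(TPM + 1), each gene centered on its mean over 9 mice, among 16801 genes. They were Chmp4c (0.22), an ESCRT component gene, the tight junction gene Marveld3 (0.29), the transmembrane protein gene Cdcp1 (0.30), the tricellular junction gene Ildr1 (0.30) and Tmem184a (0.37). Among the members, Esrp1 ranked 29, Rab25 44, Esrp2 54, Elf3 93, Ovol2 95, Grhl1 139, Ovol1 345, Klf5 462 and Grhl3 474. For Esrp1 the nearest were the claudin gene Cldn7 (0.37), Cdcp1 (0.45), Cited4 (0.49), Kcnk1 (0.50) and Perp (0.51), a desmosome-associated gene, with Rab25 at rank 7, Grhl2 at 10, Elf3 at 36 and Esrp2 at 37. The profiles include tumors 2 and 8, and the scale compresses genes of low level such as Grhl3.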

How the data were processed

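RNA of 12 mammary tumors was purified from about 50 mg of tissue and sequenced as stranded poly(A) libraries of paired-end reads. The authors trimmed the reads, aligned them to GRCm38 with HISAT2, and quantified them with StringTie 2.1.6; the deposited TPM values hold 1 row per Ensembl gene and 1 column per tumor (47593 genes, 17230 at 0 in all tumors, 21415 to 23443 above 0 per tumor). The columns sum to 999770 to 999909. TPM keeps no read number, so depth is unknown, counting error cannot be given, and no count test was run. TPM is relative: a tumor dominated by a few abundant genes has the others lowered.

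From these values log2(TPM + 1) was computed, and tumors of one mouse were averaged (9 mice). Paired genes were compared by exact sign-flip permutation tests, and relations over 7 mice by permuting their pairings exactly, both two-sided and adjusted by Benjamini-Hochberg over 4 comparisons and 8 relations. Genes with a mean of at least 1 TPM (16802) gave the background shares. The median of all genes in a tumor differed from the median tumor by -0.15 to -0.019 on the log2 scale in tumors 2, 8 and 9. For the paired genes, p asks whether the mean difference within a mouse departs from 0, with mice as the units. For the relations, p asks whether the pairing of 2 genes over 7 mice is unusual. The spread between mice is given by the SDs. Genes were named by rule: the 10 members, 7 lists of related genes, cell type markers, and the 5 genes nearest in profile to Grhl2 and to Esrp1. Genes on the opposite strand, promoter motifs, the limits of 10% and 25% of the median, the rank of tumor 9, and the comparison of tumors 3 and 4 were chosen after values were seen. Of the lists and markers, 2 genes are not reported here and entered no list count or sum. The members and lists were chosen with earlier results of these data known. Gene positions came from GENCODE vM21 (99.0% of identifiers matched) and promoters from RefSeq. Alternatives were another pseudocount (0.1), tumors as units, no mitochondrial genes, values relative to Krt8, Krt18, Cdh1 and Epcam, mice with both genes under 1 TPM left out, the mice of tumors 2 and 8 left out, and each mouse left out in turn. The tests were tested on simulated data. Computation ran in Python 3.11.15 with scipy 1.17.1 for tests, pandas 2.3.3 and numpy 2.4.6 for tables, and matplotlib 3.10.9 for figures.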

Additional observations from a re-analysis of the deposited data

Results flagged for a closer look

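Of the 10 members examined over 9 mice, 1 had a mouse far from all others by Dixon's criterion, which chance meets in about 1 in 20 groups. Klf5 was 0 in the mouse of tumor 2, and the nearest mouse, that of tumor 8, was at 3.26 on the log2(TPM + 1) scale. For the other members both of these mice were low together, so neither stood alone at the end of the range.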

How the results depend on the processing

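Of 56 alternative values of the 4 paired comparisons, 55 kept their direction and their side of 0.05. The exception was Ovol1 minus Ovol2, 0.31 with a pseudocount of 0.1. All 120 alternative mean levels of the members moved by less than 1 SD. For most of them this was fixed in advance, since leaving out 1 or 2 of 9 mice cannot move a mean that far. Without the mice of tumors 2 and 8 the mean log2(TPM + 1) rose for each member, from 5.40 to 6.90 for Esrp1 and from 5.74 to 7.15 for Rab25. In tumor 8, 8 members were under 10% of the median tumor with and without tumor 2. Tumor 8 was among the 2 lowest of 12 for 10 members and, under the other rule that leaving out tumor 2 requires, the lowest of 11 for 10. The latter count was fixed by the former, since tumor 2 was the other of the 2 lowest, so it is no separate check. The setting without tumor 2 was chosen after seeing the data. Of 87 alternative values of the 8 relations, 66 kept both direction and side, 9 lost p under 0.05, 2 gained it and 10 turned. With each tumor as a unit, r was -0.61 for Grhl2 with Rab25 (no longer under 0.05), -0.70 for Grhl2 with Zeb1 and -0.65 for Esrp1 with Zeb1 (both then under 0.05, with tumors of one mouse counted separately), and 0.037 for Ovol2 with Zeb1. Relative to Krt8, Krt18, Cdh1 and Epcam, r was 0.52 for Grhl2 with Rab25, 0.57 for Grhl2 with Zeb1, 0.49 for Ovol2 with Zeb1 and 0.63 for Esrp1 with Zeb1; this setting subtracts the same value from both genes and was not run with Cdh1. With each mouse left out in turn, r ranged from -0.92 to -0.71 for Grhl2 with Rab25, from 0.58 to 0.86 for Grhl2 with Cdh1, from -0.34 to 0.52 for Ovol2 with Zeb1 and from -0.43 to 0.042 for Elf3 with Klf5. Leaving out the mouse of tumor 1, 7 or 9 took Grhl2 with Rab25 past 0.05 (-0.80, -0.74 and -0.71). For Grhl2 with Cdh1 the mice were those of tumor 1, of tumors 3 and 4, of tumor 6, of tumor 9, and of tumors 10, 11 and 12 (0.72, 0.75, 0.77, 0.58 and 0.75). Ovol2 with Zeb1 turned without the mouse of tumor 5 (0.062), 7 (0.028), 9 (0.52) or 10, 11 and 12 (0.0063), and Elf3 with Klf5 without that of tumor 7 (0.042). The cause of these changes was not tested. TPM keeps no read number, so the precision of low values, such as those of Grhl3 and of most members in tumors 2 and 8, cannot be given.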
